A study of Brachypodium distachyon with 214 samples.

Results

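Leaf transcripts of 2 inbred accessions of the annual grass Brachypodium distachyon, Bd21 and Bd3-1, were compared in plants whose soil had been allowed to dry. The members were the plants with drought in their label, 108 of the 214 plants of the series, and 1 of them, Bd3-1 replicate 59, was left out because its transcripts looked like those of Bd21. This left 107 plants, 49 of Bd21 and 58 of Bd3-1. In both accessions watering was reduced from day 33 after sowing, and soil water came down over 6 days to 55% of field capacity, the water that a soil holds after free drainage. The control plants (48 of Bd21 and 58 of Bd3-1, kept at 85% of field capacity) entered only the test of whether a difference between the accessions depended on watering. Each library came from the youngest fully expanded leaf tissue of 1 plant, so replicates are separate plants.

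An inbred accession is a line that breeds true, and plants of 2 accessions can differ in transcript level even when grown side by side. Drying soil raises abscisic acid, a hormone that closes stomata and switches on protective proteins such as dehydrins, and it alters carbon metabolism and pigment pathways in leaves. The question of the comparison was which genes differ in level between Bd21 and Bd3-1 while both are under this stress. The assay, 3′ digital gene expression, counts a tag near the transcript end once per molecule. Levels of single genes below are normalized counts, that is, counts scaled to a common effective library size, except where counts are called rounded. A lower level in a whole leaf can be fewer cells of a type or less RNA per cell, which cannot be told apart here.

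The total per library ranged over 1.09 to 3.05 M (mega) counts in Bd21 (mean 1.94 M ± 0.451, SD, n = 49) and over 0.525 to 2.89 M in Bd3-1 (mean 1.94 M ± 0.443, n = 58). The mean log2 total differed by 0.0054 (permutation p = 0.945, 2-sided, adjusted over 2 tests p = 0.945). Plastid coding sequences took 7.34% ± 0.738 of the counts in Bd21 and 6.90% ± 0.921 in Bd3-1, a difference of 0.440 percentage points (permutation p = 0.0084, adjusted p = 0.0168). The light-harvesting transcript Bradi4g31257 had 58.5 to 204 normalized counts in Bd21 plants and 46.0 to 240 in Bd3-1 plants, so this leaf transcript was counted in each library. Bd21 sequence served as the alignment target for all reads. The part this plays in the value of any single gene below, or in counts of genes by direction, was not tested.

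Of 24801 genes and plastid sequences tested, 9336 (37.6%) differed between droughted Bd21 and Bd3-1 plants at an adjusted p under 0.05. Of these, 4891 were higher in Bd21 (19.7% of those tested) and 4445 were lower (17.9%). Most differences were small. Called genes had a median absolute log2 fold change of 0.48, and 5306 of them differed by less than 1.5-fold. At least 2-fold differences were found for 2225 genes (8.97% of those tested), 1361 higher and 864 lower in Bd21, and 693 genes differed at least 4-fold. Large differences were more frequent among genes with low counts, where only large ones can pass the test. The part of this limit in the pattern was not tested. The 2-fold share was 16.8% of tested genes with a mean below 1 count and 2.23% of those above 100, and 503 genes passed with a 2-fold difference once a stricter filter had removed low genes. The median log2 fold change over all tested genes was 0.0074.

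The direction of the differences shifted with transcript abundance. Among genes with a mean below 1 count per plant, 731 were higher and 432 lower in Bd21. Such genes can pass the count filter through plants of 1 accession alone, so this split is not independent of the filter. Between 1 and 10 counts 1558 were higher and 1045 lower, and between 10 and 100 counts the numbers were 2092 and 2082. Above 100 counts, 510 were higher and 886 lower in Bd21. The share of genes called increased over these 4 classes (22.6%, 35%, 42.8% and 56.7%), while their median change in log2, sign aside, decreased (1.3, 0.76, 0.32 and 0.23).

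**Figure D1:**
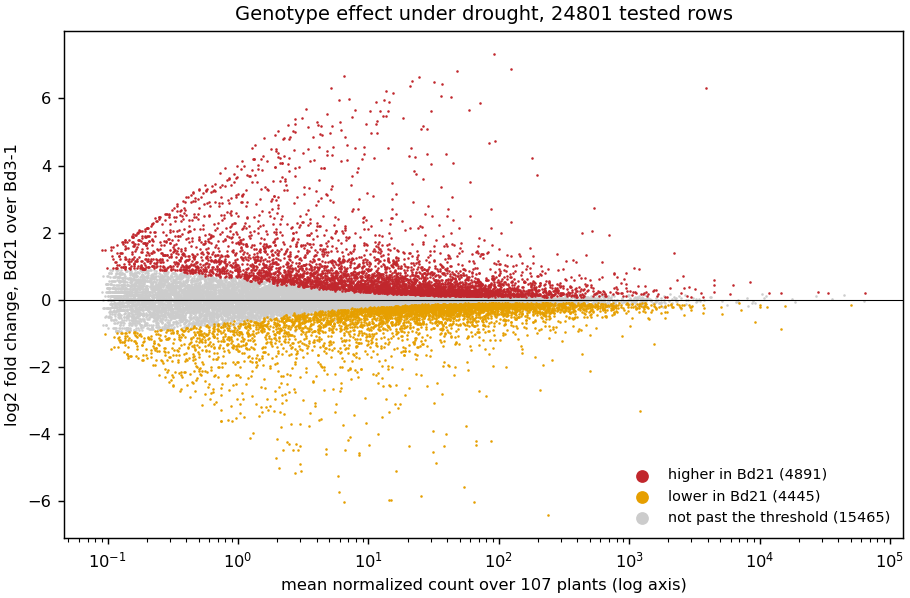
Log2 fold change of Bd21 over Bd3-1 under drought (vertical axis) against the mean normalized count over 107 plants (horizontal log axis), 1 point per tested gene or plastid sequence. Red points (4891) were higher and orange points (4445) lower in Bd21 at an adjusted p under 0.05, and grey points (15465) did not pass.

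The plants had been grown in 4 batches, each with 10 to 14 Bd21 and 14 or 15 Bd3-1 plants. Fitted within a batch, 3882, 3786, 4072 and 3830 genes passed the test. Of the 9336 genes, 8453 had the same sign in all 4 batches, 1792 passed in each of them, and 2930 passed in none alone. Of the 2225 genes with at least 2-fold differences, 2130 kept their sign in all 4 batches. Both sets of genes had been called on the plants of all 4 batches. Their signs and calls within a batch are therefore not independent evidence.

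Among genes with a median of at least 10 counts in both accessions and at least 90% whole estimates (an estimate that is not whole holds reads shared with another transcript), the largest log2 fold changes were 4.22 higher and -2.86 lower in Bd21. Loci are given by name only, since the files pair no symbol or role with them, and the first digit is the chromosome. Bradi3g15040 had a lowest value of 40.9, a median of 236 and a highest value of 2329 in Bd21 plants, against 0.665, 12.8 and 114 in Bd3-1 plants. The ranges overlapped, yet all 49 Bd21 plants lay above the Bd3-1 median. The log2 fold change was 4.22 ± 0.26 (SE, adjusted p = 1.87e-29).

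Bradi2g01520 had 235, 396 and 574 counts (lowest, median, highest) in Bd21 against 10.8, 22.3 and 79.6 in Bd3-1. The groups did not overlap, and the log2 fold change was 3.72 ± 0.11 (adjusted p = 8.31e-59). Bradi4g21724 was tighter within each accession, with 84.6, 115 and 179 counts in Bd21 against 2.42, 10.1 and 19.5 in Bd3-1. It too separated every Bd21 plant from every Bd3-1 plant, at 3.52 ± 0.069 on the log2 scale (adjusted p = 8.97e-79). The other 5 genes of this kind were Bradi4g20520 (2.69), Bradi2g39290 (2.51), Bradi4g12050 (2.38), Bradi1g47180 (2.14) and Bradi4g13670 (2.00), given as log2 fold changes.

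On the side of lower levels in Bd21, Bradi4g30668 had 7.75, 16.1 and 54.2 counts in Bd21 against 35.9, 129 and 241 in Bd3-1. All 49 Bd21 plants were below the Bd3-1 median although the ranges overlapped, and the log2 fold change was -2.86 ± 0.12 (adjusted p = 3.33e-45). Bradi3g54020 had 20.9, 42.9 and 86.6 counts in Bd21 against 133, 171 and 238 in Bd3-1. These ranges were apart, with a log2 fold change of -2.00 ± 0.054 (adjusted p = 1.43e-63). Bradi3g50886 had 7.60, 17.1 and 30.1 counts in Bd21 against 43.3, 68.4 and 100.2 in Bd3-1, also without overlap (-2.01 ± 0.062). Bradi4g21277 was the third gene of this set whose groups were apart (-1.96), and Bradi3g42430 (-2.72), Bradi5g18277 (-2.70), Bradi2g22530 (-2.22) and Bradi4g18280 (-1.98) overlapped.

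**Figure D2:**
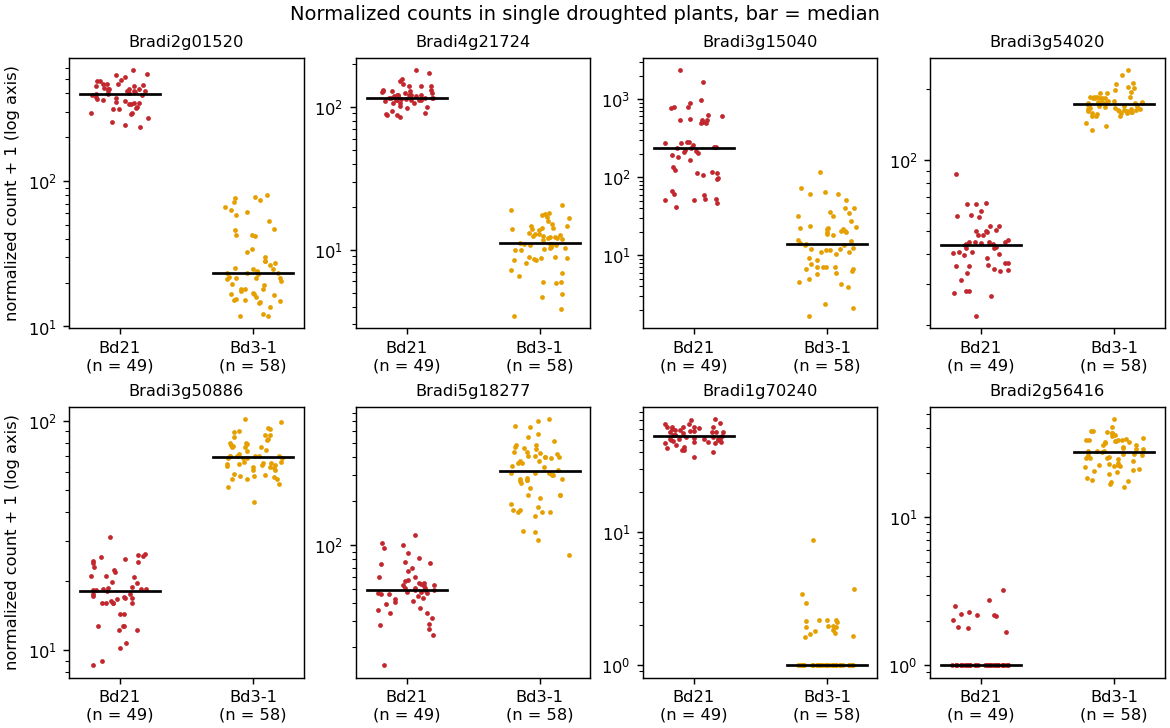
Normalized count plus 1 (log axis, each panel with its own range) in every droughted plant for 8 genes, Bd21 (49 red points) to the left of Bd3-1 (58 orange points), with a bar at the median. Bradi2g01520, Bradi4g21724, Bradi3g54020, Bradi3g50886, Bradi1g70240 and Bradi2g56416 show 2 clouds that do not overlap, whereas those of Bradi3g15040 and Bradi5g18277 meet.

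In 152 genes (0.613% of those tested), every plant of 1 accession had a higher normalized count than every plant of the other, with Bd21 above in 109 and Bd3-1 above in 43. These counts rest on leaving out Bd3-1 replicate 59. With that plant included, 9 genes had Bd21 above and 0 had Bd3-1 above. Among the 152, 13 had a mean of at least 50 counts and at least a 16-fold difference, a selection made after the values were seen. Of these 13, 7 were higher and 6 lower in Bd21.

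Bradi4g12160 had 145, 243 and 611 counts in Bd21 against 0, 1.77 and 19.4 in Bd3-1. Bradi2g39820 had 98.0, 148 and 214 counts in Bd21 against 0, 2.00 and 7.75 in Bd3-1. In both genes the lowest Bd21 plant was far above the highest Bd3-1 plant, and the log2 fold changes were 6.88 ± 0.12 and 5.86 ± 0.089. In the opposite direction, Bradi4g30740 had 0.751, 4.95 and 10.53 counts in Bd21 against 197.6, 389 and 911 in Bd3-1, at -6.40 ± 0.13. Bradi2g59550 (-4.19), Bradi4g24302 (-4.33) and Bradi3g60740 (-4.19) were also low in Bd21, with Bd21 medians of 7.20, 5.46 and 6.13 counts.

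The most abundant of the 13 was Bradi5g00063, with 6017, 8340 and 11968 counts in Bd21 against 0, 93.3 and 391 in Bd3-1. Only 3.77% of its estimates above 0 were whole numbers, so in most plants some of its reads were shared with other transcripts. How many were shared was not measured, and its level is uncertain. The same holds for Bradi4g21717 (log2 fold change 7.31, 1.11% whole), and in part for Bradi3g34720, Bradi2g39648, Bradi1g03965 and Bradi1g49322 (41.1% to 73.5% whole).

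Genes were taken as close to silent in 1 accession where every plant of it had at most 3 rounded counts, before normalization. A median of at least 10 normalized counts was required in the other accession. There were 38 such genes restricted to Bd21 and 7 restricted to Bd3-1, and 42 of these 45 were among the non-overlapping genes. None of them was at 0 over all plants of the low accession. The Bd21-restricted genes summed to 1 to 60 rounded counts over 58 Bd3-1 plants, against 509 to 3891 over 49 Bd21 plants. The Bd3-1-restricted genes summed to 3 to 27 rounded counts over the Bd21 plants, against 620 to 1560 over the Bd3-1 plants. All rows are Bd21 sequences, so a gene present only in Bd3-1 has no row. The part of this in the numbers of restricted genes was not tested.

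Bradi2g39537 had the highest median of the Bd21-restricted genes, with 36.1, 80.7 and 139 counts in Bd21 against 0, 0.789 and 3.87 in Bd3-1. Its pooled level was 98.5 times higher in Bd21 (95% interval 73.9 to 134.3, counting error only). Bradi1g70240 had 36.2, 52.2 and 69.8 counts in Bd21 against 0, 0 and 7.75 in Bd3-1, a pooled ratio of 127.8 (85.7 to 200). These and Bradi1g78165 (median of 64.6 counts in Bd21), Bradi5g01366 (45.1) and Bradi2g01450 (31.9), each with a Bd3-1 median of 0, were the 5 Bd21-restricted genes with the highest medians among those with at least 90% whole estimates. Bradi4g44590 (78.2 counts in Bd21, 70.9% whole), Bradi4g10045 (45.08, 35.3% whole) and Bradi3g19224 (39.0, 58.5% whole) had medians in the same range.

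Of the genes restricted to Bd3-1, Bradi2g56416 had 0, 0 and 2.25 counts in Bd21 against 14.96, 26.8 and 45.0 in Bd3-1, a pooled ratio of Bd3-1 over Bd21 of 87.4 (52.8 to 157). Bradi2g19415 was at a similar level, with 0, 0 and 2.00 counts in Bd21 against 7.71, 25.7 and 46.4 in Bd3-1. Bradi1g58592, Bradi1g63460 and Bradi4g00714 had Bd3-1 medians of 14.4, 11.8 and 11.4 counts. All 45 genes had the same sign in all 4 growth batches, but their choice on these same plants left little room for another outcome.

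The choice of these genes fixes how the 49 Bd21 and 58 Bd3-1 plants compare in them. Replicate 59 was not used to choose them, but it had been left out because its transcripts looked like those of Bd21. Its value here is therefore not independent evidence. The Bd21-restricted genes held 99.4% to 100% of the restricted-gene counts in Bd21 plants and 2.97% to 31.0% in the 58 Bd3-1 plants. In the plant labelled Bd3-1 replicate 59 they held 99.9%. With that plant counted as Bd3-1, only 2 genes remained restricted to Bd21.

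**Figure D3:**
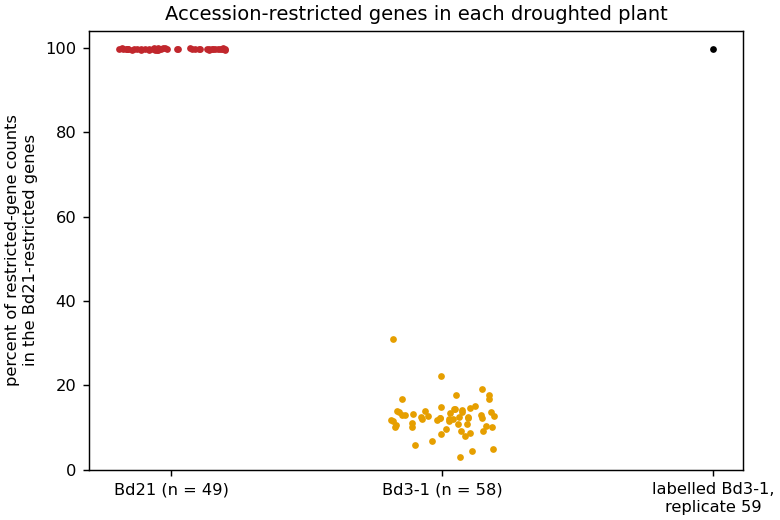
Percent of the counts in the 45 accession-restricted genes that fell in the 38 Bd21-restricted genes (vertical axis from 0), 1 point per droughted plant. Bd21 plants lie at 99.4% or more, Bd3-1 plants at 31.0% or less, and the plant labelled Bd3-1 replicate 59 at 99.9%.

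The most abundant genes were taken among those with a log2 fold change of at least 0.5, sign aside, and at least 90% whole estimates. Bradi3g16180 had 8089, 9862 and 13765 counts in Bd21 against 5354, 6900.5 and 9234 in Bd3-1, and all 49 Bd21 plants lay above the Bd3-1 median (0.54 ± 0.040, adjusted p = 3.24e-24). Bradi3g26930 had 2156, 3116 and 4619.5 counts in Bd21 against 1395, 1939 and 2867.5 in Bd3-1 (0.72 ± 0.050). Bradi5g21630 was lower in Bd21, with 465, 789 and 1719.6 counts against 1441, 2114 and 2782 in Bd3-1, and all 49 Bd21 plants were below the Bd3-1 median (-1.31 ± 0.062, adjusted p = 1.5e-39). Bradi2g54400 (0.59) and Bradi4g25750 (0.59) were the others of the 4 most abundant genes higher in Bd21, and Bradi4g01200 (-0.56), Bradi4g00940 (-0.53) and Bradi5g16720 (-0.53) the others lower.

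The study's text names 56 of the tested loci, most of them with an ortholog or a role. Of these, 40 passed the test, 23 higher and 17 lower in Bd21, against 37.6% of all tested genes. Within growth batches, 36 of the 40 had the same sign in all 4. The study assembled most of these lists from the same plants, so their directions are not independent evidence. Groups overlapped in all 56 loci, where only 0.613% of all tested genes had groups that did not overlap. The medians of the lists stand beside a median log2 fold change of 0.0074 over all tested genes.

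The list of abscisic acid and drought genes held 13 loci, of which 5 were higher and 3 lower in Bd21 and 5 did not pass, with a median log2 fold change of 0.12. The ortholog of AtNCED2, whose enzyme in Arabidopsis cleaves carotenoids to the precursor of abscisic acid (Bradi1g13760), had a log2 fold change of 0.23 ± 0.14 (adjusted p = 0.221). The ortholog of AtCYP707A1, which in Arabidopsis breaks the hormone down (Bradi3g52660), was slightly higher in Bd21 (0.23 ± 0.081, adjusted p = 0.0185). In growth batches 1 to 4 its log2 fold change was 0.43, 0.38, 0.11 and -0.16.

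The ortholog of AtHAB1, in Arabidopsis a phosphatase that holds abscisic acid signalling down (Bradi2g18510), had 21.3, 56.9 and 98.1 counts in Bd21 against 40.7, 78.1 and 141 in Bd3-1. It was lower in Bd21 (-0.44 ± 0.073, adjusted p = 1.58e-07), with 42 of 49 Bd21 plants below the Bd3-1 median. Its relative, the AtHAB2 ortholog Bradi2g41950, had a log2 fold change of -0.03 (adjusted p = 0.821). The AtAITR3 ortholog Bradi4g39520, a transcriptional repressor in Arabidopsis, was lower in Bd21 (-0.39), and the ATHB-7 ortholog Bradi3g50220, a homeodomain factor there, was higher (0.30), though only 6.54% of the estimates of Bradi3g50220 were whole.

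The largest difference of the list was in Bradi3g00920, a leucine-rich repeat protein, with 2.94, 43.7 and 253 counts in Bd21 against 0, 3.76 and 10.7 in Bd3-1. Of 49 Bd21 plants, 48 were above the Bd3-1 median (3.61 ± 0.21, adjusted p = 1.47e-31), and 69.8% of its estimates were whole. Bradi3g39800, annotated with stomatal movement, was lower in Bd21, with 17.0, 42.9 and 131 counts against 35.4, 83.6 and 201 in Bd3-1 (-0.96 ± 0.11, adjusted p = 8.25e-13). Bradi2g23740 of wax biosynthesis (0.60) and the LEA protein Bradi1g51770 (0.52) were higher in Bd21, with 47.7% and 74.8% whole estimates.

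Of 4 other drought loci, 1 passed. Dehydrins such as RAB18 are hydrophilic proteins that accumulate in drying tissue. Both RAB18 orthologs were low and did not pass: Bradi1g37410 had medians of 3.21 counts in Bd21 and 4.14 in Bd3-1 (adjusted p = 0.186), and Bradi3g43870 3.80 and 3.44 (adjusted p = 0.894). The IAR4 ortholog Bradi1g44480 had medians of 16.9 and 16.5 (adjusted p = 0.524). The ASR5 ortholog Bradi4g24650, which is not a dehydrin, was higher in Bd21, with 480.03, 944 and 1696 counts in Bd21 against 242, 559 and 997 in Bd3-1 (0.77 ± 0.085, adjusted p = 6.72e-14). Of 49 Bd21 plants, 46 lay above its Bd3-1 median.

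In the list of light, starch and flavonoid genes, 6 of 11 were higher and 2 lower in Bd21 (median 0.27). The 4-coumarate:CoA ligase Bradi3g52350, which activates cinnamic acids for lignin and flavonoids, had 47.7, 85.4 and 213 counts in Bd21 against 24.9, 46.6 and 93.9 in Bd3-1 (0.96 ± 0.090, adjusted p = 1.62e-17). All 49 Bd21 plants were above the Bd3-1 median. The flavonoid 3'-hydroxylase Bradi3g04750 (0.72), the endoglucanase Bradi5g14580 (0.67) and the glucanotransferase Bradi1g18650 (0.48) were also higher. The 6-phosphogluconolactonase Bradi1g22050, an enzyme of the oxidative pentose phosphate pathway (-0.56), and the starch gene Bradi4g15010 (-0.32) were lower.

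All 7 members of the phenylpropanoid list were higher in Bd21, with a median log2 fold change of 0.65. This pathway turns phenylalanine into lignin precursors and flavonoids. The study drew this list from a set of genes that varied together in Bd21 plants of this experiment. PAL, the entry enzyme (Bradi5g15830), had 16.3, 41.1 and 170 counts in Bd21 against 9.97, 23.5 and 44.5 in Bd3-1 (1.08 ± 0.12), with 36.4% whole estimates. The C4H ortholog Bradi2g31510, the next step, was higher by 0.38.

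Of the F3H orthologs, which hydroxylate flavanones, Bradi5g19250 had 0, 21.1 and 149 counts in Bd21 against 0, 2.50 and 19.4 in Bd3-1. Of 49 Bd21 plants, 47 were above the Bd3-1 median, and the log2 fold change was 3.01 ± 0.25 (adjusted p = 1.09e-20). Bradi2g54090 was lower in level, with medians of 8.86 in Bd21 and 4.40 in Bd3-1 (1.19 ± 0.25). The PPO ortholog Bradi2g52260 (0.65), the R2R3 MYB factor Bradi2g11676 (0.57) and the F3'H ortholog Bradi4g31380 (0.33) completed the list. In growth batches 1 to 4 the log2 fold change of Bradi4g31380 was -0.12, 0.11, 0.79 and 0.54.

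The list of NAC factors and chlorophyll genes went the other way, with 6 of 7 lower in Bd21, 0 higher and a median of -0.73. The study drew it from a set of genes that varied together in Bd3-1. NAC proteins are plant transcription factors, several of which act in leaf senescence. Bradi3g59380 had 0, 2.78 and 7.48 counts in Bd21 against 2.95, 10.7 and 35.2 in Bd3-1, and all 49 Bd21 plants were below the Bd3-1 median (-2.16 ± 0.18, adjusted p = 5.76e-20). Bradi4g02060 had 24.5, 44.4 and 74.5 counts in Bd21 against 44.9, 89.4 and 163 in Bd3-1, again with 49 of 49 below (-0.96 ± 0.077). The NAC genes Bradi4g44000 (-1.53), Bradi1g63600 (-0.73) and Bradi1g17480 (-0.72) and the stay-green gene Bradi4g36060 (-0.51), whose relatives take part in chlorophyll breakdown, were lower too. The chlorophyll A-B binding gene Bradi4g31257 had a log2 fold change of -0.08 (adjusted p = 0.46).

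Of 5 clock orthologs, 1 was higher and 2 were lower in Bd21. REVEILLE factors are MYB-like proteins of the plant clock. The REVEILLE 6 ortholog Bradi3g51757 was higher (0.31), a REVEILLE 2/7 ortholog Bradi5g19380 was lower (-0.68 ± 0.13, adjusted p = 9.88e-06) and the BROTHER OF LUX ARRHYTHMO ortholog Bradi2g62067 was lower (-0.44). The LATE ELONGATED HYPOCOTYL ortholog Bradi3g16515, a central morning factor in Arabidopsis, had 6.57, 31.8 and 106 counts in Bd21 against 4.81, 27.1 and 68.6 in Bd3-1 (0.26 ± 0.14, adjusted p = 0.131).

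Among the 9 other loci, 3 were higher and 4 lower in Bd21. The serine-type endopeptidase Bradi5g18277 had 14.0, 48.4 and 116 counts in Bd21 against 84.7, 318 and 718 in Bd3-1 (-2.70 ± 0.12), and the zinc transporter Bradi1g53680 had 25.1, 107 and 243 against 136, 382 and 749 (-1.80 ± 0.11). In both, all 49 Bd21 plants were below the Bd3-1 median. The allene oxide cyclase Bradi1g15840, an enzyme of jasmonate synthesis, was higher in 48 of 49 Bd21 plants than the Bd3-1 median (0.91 ± 0.084). The cell-wall invertase Bradi3g44990 was higher (0.46) and the metallo-beta-lactamase Bradi3g45230 lower (-0.63). Bradi1g65130 passed the test (-1.33) with a median of 0 in both accessions and a highest value of 1.504 in Bd21 and 3.58 in Bd3-1. DESeq2 gave it an adjusted p of 0.544. The study plots this locus as an example of a large interaction of accession and watering. Its medians in control plants were 0 in Bd21 and 6.20 in Bd3-1. It did not pass the interaction test below (2.60 ± 1.90, adjusted p = 0.769).

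**Figure D4:**
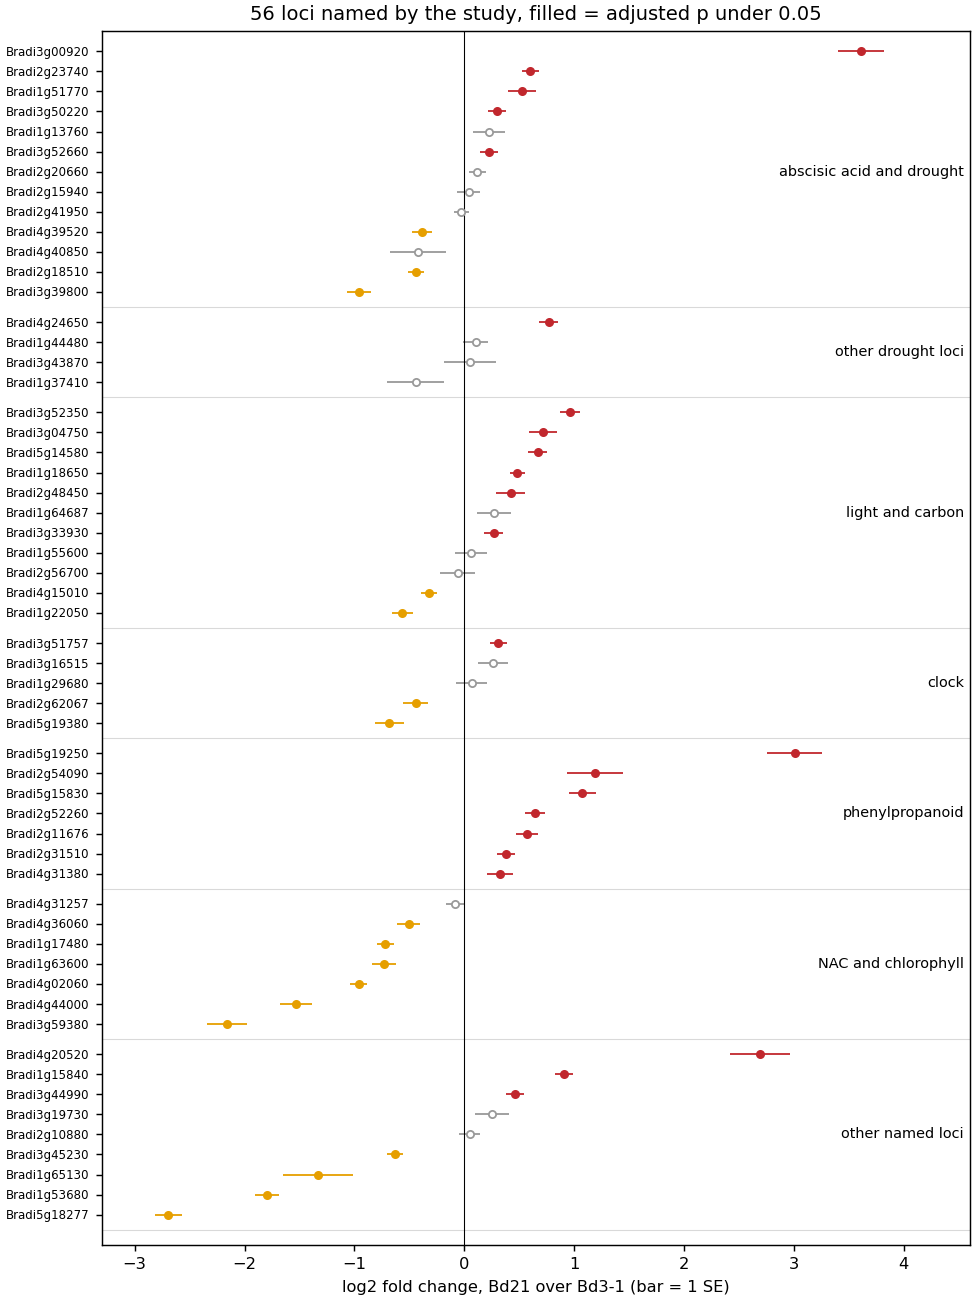
Log2 fold change of Bd21 over Bd3-1 with 1 SE for the 56 loci in 7 lists, filled where the adjusted p was under 0.05 (red higher, orange lower in Bd21). All 7 phenylpropanoid loci lie to the right of 0 and all 7 loci of the NAC and chlorophyll list to the left, 1 of them (Bradi4g31257) without passing.

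The spread between plants was compared as the mean absolute deviation from the accession's own median on the scale of log2(normalized count + 1). Over 9002 genes with a mean of at least 20 counts, the median spread was 0.234 in Bd21 and 0.237 in Bd3-1. Spread differed in 48 genes (0.533%), with 21 more variable and 27 less variable in Bd21. The count moved with the settings, to 123 on the square-root scale, 21 at a mean of at least 50 counts and 23 after thinning. All 48 also differed in level. The 21 genes more variable in Bd21 all had lower levels there, and 26 of the 27 less variable ones had higher levels there. Counting noise on the log scale grows as levels fall, and its part was not tested.

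A difference in spread with less than 0.5 in log2 level was found for 2 genes. Bradi1g75270 had 152, 222 and 339 counts in Bd21 against 128.4, 276 and 652 in Bd3-1, with the Bd21 range inside that of Bd3-1. Bradi5g22770 had 48.1, 86.5 and 156 counts in Bd21 against 77.5, 121 and 186 in Bd3-1. Its call was lost after removing growth batch and plate means (adjusted p = 0.258), and after thinning all libraries to the lowest total the adjusted p was 0.529 for Bradi1g75270 and 0.200 for Bradi5g22770.

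Whether the difference between accessions depended on watering was tested with the control plants added, as the log2 fold change under drought minus that in control plants. At an adjusted p under 0.1, 459 genes (1.85% of those tested) passed. Of the 9336 genes that differed under drought, 331 (3.55%) were among them. In 124 the difference was larger under drought, in 68 it was smaller, and in 139 the sign in control plants was the opposite. That sign was taken without a test or minimum size of the control difference, so an opposite sign need not be a reversal. Of the 152 non-overlapping genes, 9 (5.92%) passed.

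Bradi3g05292 had medians of 21.95 counts in droughted Bd21 and 8.28 in droughted Bd3-1, against 19.1 in control Bd21 and 36.4 in control Bd3-1. The accessions changed order, with an interaction of 2.098 ± 0.16 (adjusted p = 5.21e-24). Bradi3g20677 changed order in the opposite direction, with medians of 51.2 in droughted Bd21 and 112.9 in droughted Bd3-1, against 30.6 in control Bd21 and 18.0 in control Bd3-1 (-2.03 ± 0.21, adjusted p = 7.16e-15). Bradi3g05296, a locus close in number to the first gene, had medians of 164 in droughted Bd21 and 70.2 in droughted Bd3-1, against 173 in control Bd21 and 174 in control Bd3-1 (1.40 ± 0.27).

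Bradi3g42430 was lower in Bd21 under both waterings, and more so under drought, with medians of 15.7 in droughted Bd21 and 102 in droughted Bd3-1, against 12.1 in control Bd21 and 25.0 in control Bd3-1 (-1.58 ± 0.22). For Bradi3g34721 the difference was smaller under drought, with medians of 158 in droughted Bd21 and 5.20 in droughted Bd3-1, against 165 in control Bd21 and 2.49 in control Bd3-1 (-1.30 ± 0.20). Of the 56 listed loci, 6 passed this test, against 1.85% of all tested genes, and 4 of these 6 were among the 13 of the abscisic acid list. The study drew that list from a set of genes that it found varying together only in droughted Bd21 plants of this experiment. It also singled out Bradi3g00920 for its strong dependence on both accession and watering, so the count is not independent evidence. Bradi3g00920 had a median of 42.3 in droughted Bd21 and 3.70 in droughted Bd3-1, against 4.62 in control Bd21 and 1.59 in control Bd3-1 (2.48 ± 0.38, adjusted p = 9.41e-07).

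The share of large differences varied along the chromosomes, and whether it varied more than by chance was not tested. The share of tested genes with at least 2-fold differences was 7.39%, 8.10%, 8.93%, 11.9% and 11.3% on chromosomes 1 to 5. These shares include genes with low counts. In windows of 100 successive tested loci, a description added after the data were seen, the share among loci with a mean of at least 10 counts had a median of 2.5% over 245 windows and ranged over 0% to 24%. It was 0% in 60 windows and 3.69% over all windows together (444 of 12037 loci). The highest share was in the window Bradi4g09257 to Bradi4g10220 (6 of 25 loci). The next window on chromosome 4 (4 of 24 loci) and Bradi5g01167 to Bradi5g02255 (6 of 36 loci) were both at 16.7%. These shares rest on few genes.

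**Figure D5:**
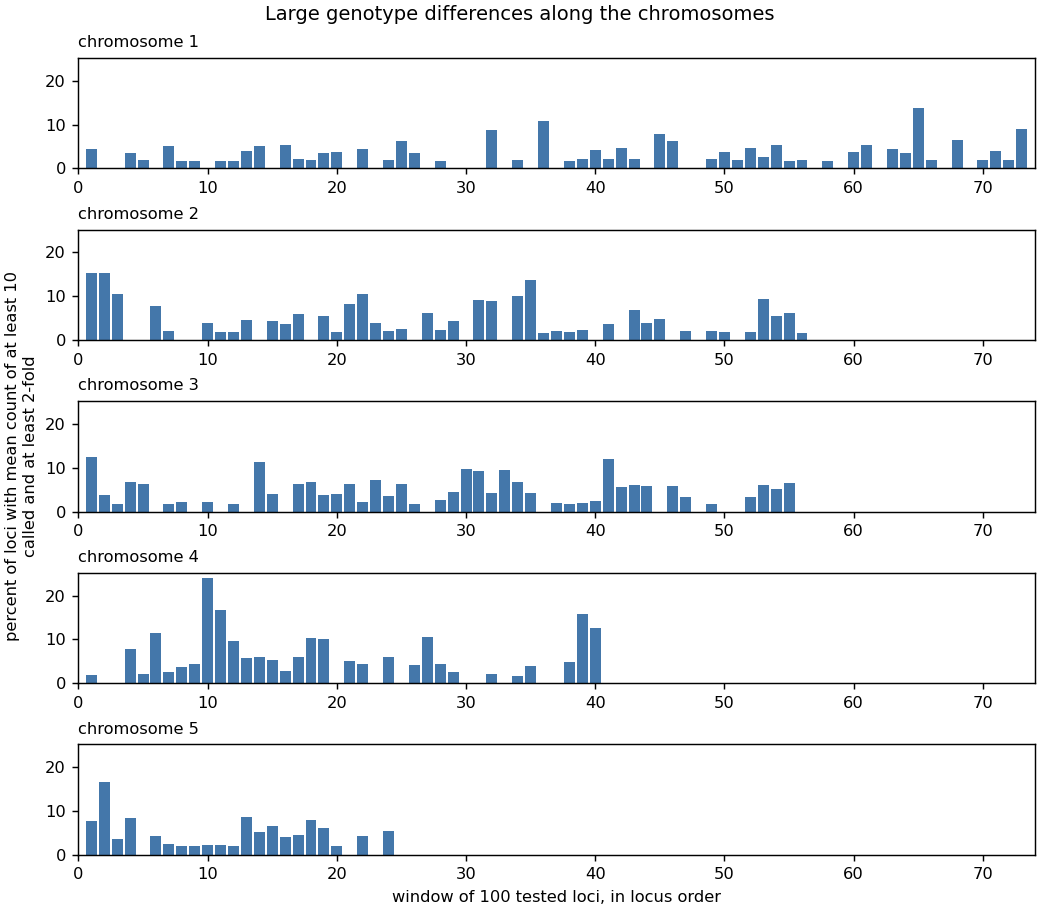
Percent of loci with a mean of at least 10 counts that were called and differed at least 2-fold between droughted Bd21 and Bd3-1 plants (vertical axis from 0), in windows of 100 tested loci in locus order on each chromosome. The tallest bar, at 24%, is on chromosome 4, and 60 of 245 windows are at 0%.

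Runs of neighbouring tested loci that all differed in the same direction were longest for genes higher in Bd21. Stretches of 14 loci were found at Bradi4g10141 to Bradi4g10201 and at Bradi5g01482 to Bradi5g01760, and 1 of 12 loci at Bradi3g16655 to Bradi3g16759. In these 3 runs, in this order, 11, 10 and 7 loci had a median under 1 count in Bd3-1, and 3, 4 and 2 had one in Bd21. Such loci can pass the count filter through plants of 1 accession alone, so the length of these runs is not independent of the filter. In the first run, 13 of 14 loci differed at least 2-fold. Bradi4g10180 had the highest Bd21 median of that run, 33.4 counts, against 5.78 in Bd3-1 (2.36). In 9 of the 14, fewer than 90% of the estimates were whole.

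In the run on chromosome 5, Bradi5g01574 had a median of 13.7 counts in Bd21 and 0 in Bd3-1 (5.95), while Bradi5g01737 differed by 0.33 only. In the run on chromosome 3, Bradi3g16655 had a median of 23.3 counts in Bd21 and 0 in Bd3-1 (5.91), beside Bradi3g16680 with 110 and 86.9 (0.24). The longest runs of genes lower in Bd21 held 7 loci (Bradi5g15550 to Bradi5g15612) and 6 loci (Bradi1g63433 to Bradi1g63490, Bradi2g06840 to Bradi2g06900 and Bradi5g27300 to Bradi5g27350). Bradi5g15580 had a median of 4.43 counts in Bd21 and 23.8 in Bd3-1 (-2.52), the largest change of the run of 7.

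Of 84 plastid coding sequences, 12 (14.3%) passed, 4 higher and 8 lower in Bd21, and 0 differed at least 2-fold. Sequence 59 of the deposited plastid set had 201, 395 and 540.0 counts in Bd21 against 298, 499 and 854 in Bd3-1 (-0.41 ± 0.058, adjusted p = 1.39e-09), and sequence 53 was lower too (-0.46). Sequences 26 (0.47) and 44 (0.30) were higher. At most 2.86% of the estimates of these 4 sequences were whole, so in nearly all plants some of their reads were shared with other sequences.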

How the data were processed

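Leaf RNA of individual plants was sequenced by 3′ digital gene expression with molecular identifiers. The authors deposited 1 table of expected counts (RSEM estimates, not normalized, 32523 rows, 84 of them plastid coding sequences). The submitters' processing notes name Trimmomatic 0.39, cutadapt 2.10, Bowtie2 2.4.0 and RSEM 1.3.3. Reads were aligned to Bd21 sequence, and RSEM divides a read that matches several transcripts, so 86.2% of the estimates above 0 were whole (within 1e-06). Columns were matched to plants by the number in their header, and 0 were unmatched.

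Estimates were rounded. Rows with a count above 0 in more than 10 of the 107 plants were tested (24801 of 29010 with any count) in edgeR 4.0.16 by its quasi-likelihood test (R 4.3.3, TMM factors, Bd21 over Bd3-1, no covariate). Benjamini-Hochberg adjustment ran over all tested rows, with thresholds of 0.05 and, for the interaction, 0.1. The SE was approximated from the change and the F statistic (absolute change over root F). Spread was tested with limma 3.58.1. Fits were tested on simulated data. No 2 libraries of an accession agreed within sampling noise (lowest chi-square per gene 2.28). Intervals and floors cover counting error only.

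Growth batch and plate came from the study's sample sheet. The same replicate number in both accessions is only a name. Members, lists and tests were chosen with earlier results of these data known. Named genes were, among called genes with at least 90% whole estimates, the 8 of each direction with the largest change and a median of at least 10 in both accessions, the 5 restricted genes of each accession with the highest median, the 4 of each direction with the highest mean and a log2 change of at least 0.5, genes differing in spread with a log2 change under 0.5, and the 3 of each sign with the largest interaction. Without the 90% rule, the 56 loci the study names, the 3 longest runs and the 2 plastid sequences of each direction with the largest change were named. Alternatives were other size factors, DESeq2 1.42.0, other filters, replicate 59 included, batch and plate terms, a replicate block, thinned libraries, no plastid rows, equal numbers of plants and a minimum fold of 1.2.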

Additional observations from a re-analysis of the deposited data

Results flagged for a closer look

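The difference between the accessions depended on watering in 14 of the 110 named genes, by the interaction test over all 4 groups (adjusted p under 0.1), against 459 of 24801 genes (1.85%). Of the 14, 6 had been named for the largest interactions, so the share is not independent of the choice. The value is the Bd21 over Bd3-1 log2 fold change under drought minus that in control plants. It was positive for Bradi3g00920 (2.48), Bradi3g05292 (2.098), Bradi5g19250 (1.43), Bradi3g05296 (1.40) and Bradi3g39800 (0.68). It was negative for Bradi3g20677 (-2.03), Bradi3g42430 (-1.58), Bradi3g34721 (-1.30), Bradi3g60740 (-1.09), Bradi4g30668 (-0.80), Bradi3g50220 (-0.70), Bradi5g18277 (-0.67), Bradi2g23740 (-0.42) and Bradi2g54400 (-0.37).

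Among these, the F3H ortholog Bradi5g19250 had medians of 20.4 counts in droughted Bd21 and 2.43 in droughted Bd3-1, against 22.5 in control Bd21 and 5.48 in control Bd3-1. The stomatal movement gene Bradi3g39800 had medians of 41.7 in droughted Bd21 and 82.6 in droughted Bd3-1, against 7.24 in control Bd21 and 22.8 in control Bd3-1, so it was lower in Bd21 under both waterings.

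The plant labelled Bd3-1 replicate 59, which was left out of the comparisons apart from the alternatives that include it, had 99.9% of its restricted-gene counts in the genes restricted to Bd21. Those genes were chosen on the other 107 plants, so their share in them was fixed by the choice. Replicate 59 had been left out because its transcripts looked like those of Bd21, so its share is not independent evidence either.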

How the results depend on the processing

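The count of 9336 genes lay between 4564 and 9461 over 13 alternatives, of which 2 were added after seeing the data (only genes with at least 90% whole estimates, 7623, and no 5 shallowest libraries, 9256). It moved by more than 1.5 times under 3. The filter of filterByExpr gave 5923 genes (2978 higher and 2945 lower in Bd21, 503 at least 2-fold), thinning to 525071 counts per library gave 5570 (2999 and 2571), and a tested minimum of 1.2-fold gave 4564 (2688 and 1876). Under that minimum the called members fell to 5 in each of the abscisic acid, light and carbon, and phenylpropanoid lists. In the clock list 1 was called. DESeq2 called 8801 genes. Of the 110 named genes, 96 kept their side of the threshold under every alternative that tested them. The sign changed in 0 called genes and in 2 that had not passed (Bradi2g56700 and Bradi1g55600). Of the other 14, 8 lost their call under the minimum fold alone.

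The 48 genes that differed in spread became 123 on the square-root scale, 21 with a mean of at least 50 counts and 23 after thinning. With a highest rounded count of at most 1, 3 genes were restricted to Bd21 and 2 to Bd3-1. With Bd3-1 replicate 59 included, 2 genes were restricted to Bd21, and 9 non-overlapping genes had Bd21 above and 0 had Bd3-1 above. The interaction count of 459 became 438 to 529. The cause of these shifts was not tested, beyond the fewer genes or counts that a filter or thinning leaves.

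Replicate numbers do not pair the plants. Over 49 same-numbered pairs the median correlation of deviations was 0.0388, and 1 Bd21 plant correlated best with its own number. A fit with a replicate block called 8486 genes and lost the calls of Bradi3g33930 (adjusted p = 0.0534) and Bradi4g31380 (adjusted p = 0.0714). Depth limits the low genes: the median tested gene had a mean of 9.53 rounded counts per plant.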
